A study of Mus musculus with 6 samples.

Results

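Erythroid and haem synthesis genes were described in spleen RNA as a list of 32 genes, of the 44794 loci with a gene name in the data. The list was given by name: the adult α- and β-globin genes, the enzymes and carriers of haem and iron, the proteins of the red cell membrane and its skeleton, erythroid transcription factors with the erythropoietin receptor, and genes of red cell maturation. By name, 29 were found. Epb41 and Epb42 were found only under their older symbols Epb4.1 and Epb4.2 and are given beside the list, not counted in it. Ahsp was not analysed here. Of the 29, 27 had a mean of at least 10 scaled counts over all libraries and were tested, and Rhd and Slc25a38 did not. All mice carried Sle1b, a lupus susceptibility interval on a C57BL/6 background, and all were given imiquimod 3 times a week over 4 weeks. Imiquimod activates TLR7, a sensor of RNA. The genotype of 3 samples was B6.Sle1b (the controls). That of the other 3 was Sle1b.IFNγR-/- (the knockouts), in which the interferon-γ receptor is disrupted as well. The labels give neither the age of the mice nor the receptor subunit that was disrupted, and no untreated group was analysed here. The study asked how interferon-γ acts on autoreactive B cells in TLR7-driven lupus, and the red cell genes were measured in the same whole-spleen RNA.

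Red cells arise from progenitors that divide under erythropoietin, switch on GATA1, TAL1 and KLF1, and then fill with haemoglobin, a tetramer of α- and β-globin chains that each hold a haem. Haem is built from glycine and succinyl-CoA by a chain of enzymes that begins with ALAS2 in red cell precursors and ends when ferrochelatase inserts iron. In the mouse the spleen is both a site of red cell production, which expands under stress and inflammation, and the place where old red cells are taken up by red pulp macrophages.

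The values are fragment counts per locus that the authors scaled between libraries. They stand for 4394299 to 6349827 fragments per library, and 3 fragments correspond to between 2.47 and 3.59 scaled counts. B6.Sle1b replicate 1 stood apart from the other libraries. Named loci held 27.0% of its values, against 17.5% to 20% in the other 5. The level of 29 ribosomal protein genes in it was 3.15 times the geometric mean of the 6 libraries, against 0.754 to 0.946 in the others. Because of this, the differences between genotypes that the text turns on are given with and without that library. The libraries are of whole spleen, so a lower share of red cell precursors and less RNA per precursor cannot be told apart.

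All 4 adult globin genes were detected in every library, with a spread inside B6.Sle1b that was much wider than the gap between the genotypes. Hba-a1, an adult α-globin gene (GRCm38 chromosome 11, 32283511 to 32284465), had 514, 46.0 and 106 scaled counts in B6.Sle1b replicates 1 to 3 and 196, 160 and 126 in Sle1b.IFNγR-/- replicates 1 to 3. Values below follow this order of replicates. All knockout libraries lay above B6.Sle1b replicates 2 and 3 and below replicate 1. The neighbouring α-globin gene Hba-a2 (chromosome 11, 32296489 to 32297298) had 512, 46.9 and 97.5 in the controls and 160, 171 and 109 in the knockouts, in the same order of groups. Hbb-bs, an adult β-globin gene (chromosome 7, 103826534 to 103828096), had 810, 28.0 and 86.2 in the controls and 118, 131 and 109 in the knockouts. Its knockout libraries were close together, while the first B6.Sle1b library was 29.0 times the second. Hbb-bt, the other adult β-globin gene (chromosome 7, 103812524 to 103813996), had 792, 23.0 and 101.2 in the controls and 124, 116 and 67.1 in the knockouts, where 1 knockout library lay below B6.Sle1b replicate 3. In means, Hbb-bs lay at 308 ± 436 against 120 ± 11.3 and Hba-a1 at 222 ± 254 against 160 ± 35.1 (SD, n = 3 each).

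Within each pair the coding sequences are nearly the same, so reads may have been divided between the copies. Over the 426 coding bases of GENCODE release M21, Hba-a1 and Hba-a2 differ at 1 base (C381T, the Hba-a1 base first, counted from the start codon). Over 441 bases Hbb-bs and Hbb-bt also differ at 1 base (C417T, the Hbb-bs base first). Single-gene values of these 4 are therefore uncertain, and the sum of each pair is the safer measure. Counts over the tested genes of the list below still take the 4 singly, so the genes of a pair are not separate evidence in them. The locus of the θ-globin gene Hbq1a, whose product is not part of adult haemoglobin, showed none of the wide B6.Sle1b spread of these 4. It had 184, 236 and 194 in the controls and 162, 212 and 201 in the knockouts. Its mean of 328 scaled counts per kilobase of exon was above that of each adult globin gene. Whether these fragments come from a θ-globin transcript was not tested. The embryonic β-like globin gene Hbb-y was listed at 0 in every library.

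The bases before a start of transcription listed by RefSeq are printed for 3 genes that share the wide spread between B6.Sle1b libraries (Hba-a1, Hbb-bs and Alas2) and, for contrast, for the haem enzyme gene Uros, which does not. They are the 250 bases upstream of the first listed start, 5′ to 3′ on the gene's strand, from RefSeq on GRCm38.p6. These starts are not the ends of the GENCODE loci: the windows of Hba-a1, Hbb-bs and Alas2 reach into the locus, and that of Uros lies inside it (chromosome 7, 133686243 to 133710072). Capitals mark GATAA, the core of the GATA factor motif, and CACCC, the core of the motif of KLF1 and related factors, on either strand (TTATC and GGGTG on the other).
Hba-a1, chr11:32283422-32283671, + strand: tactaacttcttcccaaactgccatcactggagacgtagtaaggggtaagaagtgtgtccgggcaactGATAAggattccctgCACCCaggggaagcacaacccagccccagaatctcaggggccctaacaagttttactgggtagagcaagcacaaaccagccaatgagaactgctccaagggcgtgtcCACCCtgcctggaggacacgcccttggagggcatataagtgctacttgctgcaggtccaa
Hbb-bs, chr7:103827929-103828178, - strand: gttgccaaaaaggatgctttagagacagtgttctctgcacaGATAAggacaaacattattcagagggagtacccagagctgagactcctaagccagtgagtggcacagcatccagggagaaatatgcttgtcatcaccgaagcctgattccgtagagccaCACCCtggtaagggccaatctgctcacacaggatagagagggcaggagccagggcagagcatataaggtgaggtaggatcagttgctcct
Alas2, chrX:150547167-150547416, + strand: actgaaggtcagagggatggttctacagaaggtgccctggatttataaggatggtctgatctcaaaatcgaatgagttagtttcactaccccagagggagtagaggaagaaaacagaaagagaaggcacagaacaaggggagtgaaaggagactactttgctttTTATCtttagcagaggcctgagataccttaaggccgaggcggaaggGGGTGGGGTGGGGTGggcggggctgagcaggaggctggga
Uros, chr7:133709296-133709545, - strand: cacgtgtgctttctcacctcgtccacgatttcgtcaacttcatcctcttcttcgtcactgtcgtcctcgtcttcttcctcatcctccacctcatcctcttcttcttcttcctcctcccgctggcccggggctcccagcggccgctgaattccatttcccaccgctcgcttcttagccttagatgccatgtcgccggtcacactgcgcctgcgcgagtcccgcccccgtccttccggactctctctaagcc
The globin and Alas2 windows each hold both motifs, and the Uros window holds neither. The motifs did not follow the spread in every gene. Kel and Trim10 hold both, at ratios of B6.Sle1b replicate 1 to replicate 2 of 1.11 and 1.48, and Epb41 holds neither, at a ratio of 17.2. The promoter table had an entry for 24 of the 32 listed genes. GATAA was found in 15 of these (62.5%), against 23.0% of all 27025 promoters, and CACCC in 17 (70.8%), against 51.3%. Both stood together in 13 (54.2%), against 10% of all promoters, and no GATAA match overlapped a CACCC match. The E-box CANNTG, the general site of factors such as TAL1, was found in 18 (75%), against 66.0%. A match describes these letters only, and no binding was measured.

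The balance of α- and β-globin differed more among the B6.Sle1b libraries than among the knockouts. The summed α-globin value was 1025, 92.9 and 203 in the controls and 356, 330 and 235 in the knockouts. The summed β-globin value was 1602, 51.0 and 187 in the controls and 242, 247 and 176 in the knockouts. The ratio of α to β was therefore 0.640, 1.82 and 1.085 in the controls and 1.47, 1.34 and 1.33 in the knockouts. Only the library with the highest globin level had more β than α. The mean ratio was 1.18 ± 0.60 against 1.38 ± 0.078 (SD, n = 3 each), with the knockout range inside that of B6.Sle1b. The ratio in B6.Sle1b replicate 2 rests on 113 α and 62 β fragments. As a share of all values in named loci, which does not depend on the scaling between libraries, the 4 globins took up 0.169%, 0.0157% and 0.0378% in the controls and 0.0598%, 0.0554% and 0.0396% in the knockouts.

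**Figure D1:**
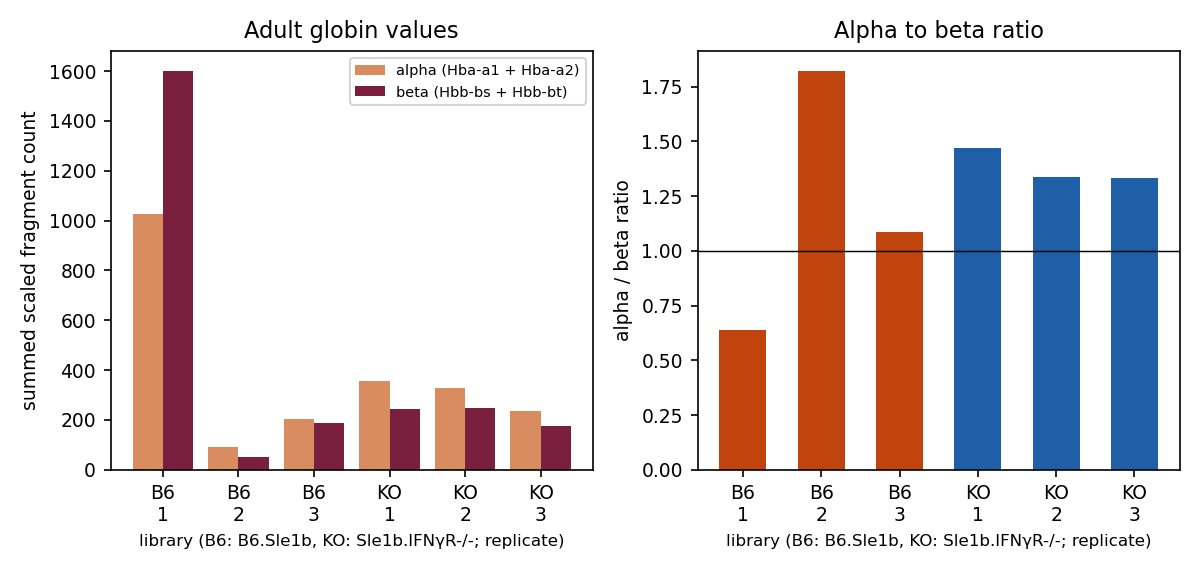
Left, summed scaled fragment counts of the 2 α-globin genes and the 2 β-globin genes in each of the 6 libraries; right, the ratio of the α sum to the β sum, with a line at 1. Each bar is 1 library. B6.Sle1b replicate 1 has the highest sums (1025 and 1602) and the lowest ratio (0.640), and the 3 knockout ratios lie between 1.33 and 1.47.

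Per kilobase of exon, a scale on which levels of different genes can be compared, the globins had the highest means of the list over the 6 libraries. These means include B6.Sle1b replicate 1, the highest library for all 4 globins, and the order within single libraries was not ranked. Hbq1a, outside the list, was at 328, and whether its fragments come from a θ-globin transcript was not tested. Hbb-bt had a mean level of 290 scaled counts per kilobase over the 6 libraries, Hbb-bs 278, Hba-a2 274 and Hba-a1 235, which placed them at ranks 210 to 281 of 18187 loci. Trim10 followed at 60.5, Car2 at 48.0 and Slc4a1 at 44.8, against a median of 8.09 over all loci. Of the 27 tested genes Ank1 was the lowest, with a mean level of 4.41 per kilobase.

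Among the haem and iron genes, the first and last enzymes of the pathway and the iron carriers had the wide B6.Sle1b spread of the globins, and the middle enzymes did not. Alas2, the red cell form of the first enzyme of haem synthesis (chromosome X, 150547375 to 150570638), had 119, 7.40 and 26.2 in the controls and 49.8, 39.3 and 17.97 in the knockouts. Fech, ferrochelatase, the last enzyme (chromosome 18, 64452914 to 64490251), had 288, 42.7 and 74.1 in the controls and 149, 122 and 119 in the knockouts. The mitochondrial iron carrier gene Slc25a37, or mitoferrin 1, had 360, 37.0 and 110 in the controls and 182, 158 and 104 in the knockouts. In all 3 genes the first B6.Sle1b library was the highest of the 6 and the second the lowest. Tfrc, the transferrin receptor through which cells take up iron, had 185, 30.4 and 36.6 in the controls and 54.2, 74.2 and 44.3 in the knockouts. Its knockout libraries, like those of Fech but not those of Alas2 and Slc25a37, all lay between the first B6.Sle1b library and the others.

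The middle enzymes of the pathway were flatter. Alad, which joins the first intermediates into porphobilinogen, had 31.6, 21.4 and 26.2 in the controls and 23.6, 29.2 and 32.3 in the knockouts. Uros, which closes the ring, had 32.6, 35.4 and 56.2 in the controls and 33.2, 42.7 and 57.5 in the knockouts, so that the first B6.Sle1b library was the lowest of the 6. Urod, which acts next, had 24.5, 15.6 and 9.37 in the controls and 8.74, 22.5 and 5.99 in the knockouts, with no order by genotype. Slc25a38, a mitochondrial glycine carrier, was near the floor, at 22.4, 0 and 9.37 in the controls and 2.62, 8.99 and 9.58 in the knockouts. Alas1, the form of the first enzyme that all cells use and not on the list, had 61.1, 36.2 and 23.4 in the controls and 36.7, 22.5 and 39.5 in the knockouts. Its first B6.Sle1b library was 1.69 times the second, against 16.1 times for Alas2. The Alas2 ratio rests on only 7.40 scaled counts in the second library.

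The membrane genes ranged from very wide spread to none. Slc4a1, the anion exchanger band 3 that anchors the skeleton to the membrane (chromosome 11, 102348824 to 102366203), had 578, 51.0 and 124 in the controls and 228, 189 and 146 in the knockouts. Its mean was 251 ± 285 against 188 ± 41.1 (SD, n = 3 each), and the order of the libraries was that of Hba-a1. Sptb, the red cell β-spectrin, had 180, 41.9 and 68.4 in the controls and 93.6, 80.9 and 69.5 in the knockouts, at the highest of the 3 loci of its name. Ank1, the ankyrin that links spectrin to band 3, had 139, 18.1 and 54.4 in the controls and 37.6, 62.9 and 46.7 in the knockouts. Here the knockout libraries lay on both sides of B6.Sle1b replicate 3.

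Among the blood group proteins, Rhag, the Rh-associated glycoprotein, had 63.2, 15.6 and 14.1 in the controls and 17.5, 21.4 and 32.3 in the knockouts. Ermap, the Scianna protein, had 184, 28.8 and 50.6 in the controls and 72.6, 37.1 and 46.7 in the knockouts. Both were highest in B6.Sle1b replicate 1, and the knockout values of Ermap overlapped those of the other B6.Sle1b libraries. Kel, the Kell protein, was nearly level, with 59.1, 53.4 and 55.3 in the controls and 71.7, 57.3 and 70.7 in the knockouts. Rhd, the Rh blood group protein, was listed at 10.2, 0 and 0 in the controls and 0, 0 and 5.99 in the knockouts, too low to compare. The skeleton protein gene Epb41, protein 4.1R, had 368, 21.4 and 82.5 in the controls and 135, 117 and 91.0 in the knockouts, again in the order of Hba-a1. Epb42, protein 4.2, had 54.0, 13.2 and 21.6 in the controls and 20.1, 6.74 and 21.6 in the knockouts, with the lowest value in a knockout library.

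The transcription factors and the receptor did not share 1 order of libraries. Klf1, which switches on adult β-globin and many red cell genes, had 31.6, 4.11 and 2.81 in the controls and 18.4, 5.62 and 5.99 in the knockouts, with the knockout libraries again between the first B6.Sle1b library and the others, but on few fragments. Gata1, the master regulator of red cells, which megakaryocytes and mast cells also use (chromosome X, 7959260 to 7978071), had 28.5, 33.7 and 58.1 in the controls and 21.9, 25.8 and 44.3 in the knockouts. B6.Sle1b replicate 1, where the globins were highest, was not among its highest libraries. Tal1, a partner of GATA1, had 124, 54.3 and 32.8 in the controls and 30.6, 57.3 and 62.3 in the knockouts. Nfe2, a factor of globin control and of platelet formation, had 35.7, 31.2 and 33.7 in the controls and 44.6, 30.3 and 23.96 in the knockouts. Epor, the erythropoietin receptor, had 21.4, 10.7 and 4.69 in the controls and 22.7, 17.98 and 9.58 in the knockouts. The groups overlapped in all 5.

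In the last group, Car1 and Car2, the carbonic anhydrases of red cells, were both highest in B6.Sle1b replicate 1 and lowest in replicate 2. Car1 had 34.6, 3.29 and 7.50 in the controls and 20.99, 8.99 and 17.97 in the knockouts, and Car2 had 325, 46.9 and 78.7 in the controls and 112, 68.6 and 65.9 in the knockouts. Bpgm, the enzyme that makes the haemoglobin ligand 2,3-bisphosphoglycerate, had 117, 46.9 and 34.7 in the controls and 68.2, 36.0 and 51.5 in the knockouts. Hemgn, a nuclear protein of differentiating red cells, had 110, 63.3 and 41.2 in the controls and 68.2, 48.3 and 27.6 in the knockouts. Trim10, a ring-finger protein of terminal red cell differentiation, had 206, 139 and 87.2 in the controls and was level in the knockouts at 125, 129 and 128. In all 5 genes the knockout values lay inside the B6.Sle1b range, except that the lowest Hemgn value was a knockout.

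**Figure D2:**
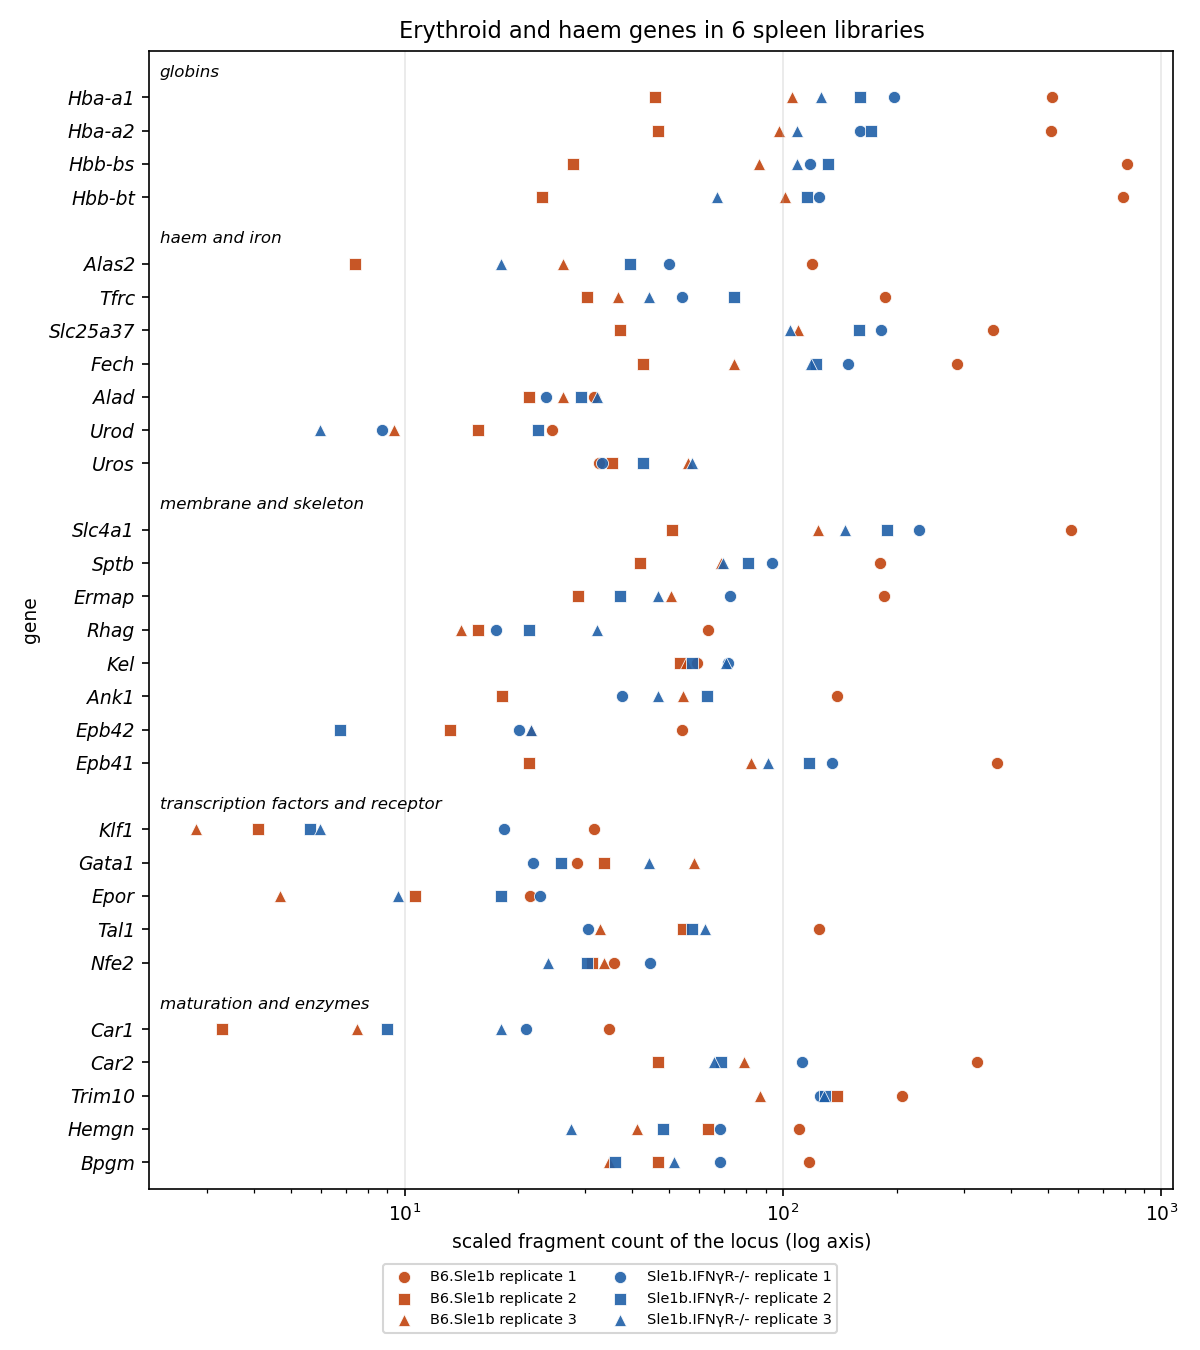
Scaled fragment count (log axis) of the tested genes, with Epb41 and Epb42 under their older symbols, grouped by role; each point is 1 library, coloured by genotype and shaped by replicate number. For most globin, haem, iron and membrane genes B6.Sle1b replicate 1 lies far to the right and replicate 2 to the left, with the knockout libraries between them; Kel, Nfe2, Alad and Uros show no such spread.

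No gene of the list passed the comparison of genotypes over all 6 libraries. In limma on log2(value + 1), 0 of the 27 had a Benjamini-Hochberg adjusted p under 0.05 and 0 had an unadjusted p under 0.05. Over all 19227 named loci tested these counts were 0 (0.0%) and 596 (3.1%). The log2 difference, knockout minus control, was above 0 for 13 of the 27 and below 0 for 14, against 41.9% above 0 over all loci. Its median was -0.068, beside -0.083 over all loci. With each library scaled to its ribosomal protein genes the median was 0.52, and that of all loci 0.49. Slc4a1 had a log2 difference of 0.26 (SE 0.62), Hba-a1 of 0.21 (SE 0.62), Hbb-bs of -0.080 (SE 0.83) and Alas2 of 0.17 (SE 0.74). The extremes were Car1 at 0.56 (SE 0.74) and Hemgn at -0.54 (SE 0.42), and the limma adjusted p was 0.99976 for every tested gene of the list. The knockout libraries lay wholly above the controls in 0 of the 27 (3.51% of all loci) and wholly below them in 0 (5.19%).

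The direction of the list depended on which B6.Sle1b library was in the fit. Without B6.Sle1b replicate 1 the median log2 difference was 0.59 (0.019 over all loci), and 22 of the 27 were above 0, against 51.6% of all loci. Without replicate 2 the median was -0.46 (-0.17 over all loci). In the fit without replicate 1, 9 of the 27 had higher knockout values at an unadjusted limma p under 0.05, against 2.79% of all loci, and 0 had lower ones, against 1.41%. They were the 4 globins, Alas2, Slc4a1, Tfrc, Slc25a37 and Fech, with log2 differences from 0.74 (Tfrc, SE 0.35) to 1.26 (Hbb-bs, SE 0.35). None of the 27 reached a limma adjusted p under 0.05 there, against 5 loci (0.026%) in all; the smallest was 0.609, for Fech. In the fit without replicate 2, 5 of the 27 (Hbb-bs, Hbb-bt, Car2, Ermap and Ank1) had lower knockout values at an unadjusted limma p under 0.05, against 7.56% of all loci, and 0 had higher ones, against 1.5%.

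**Figure D3:**
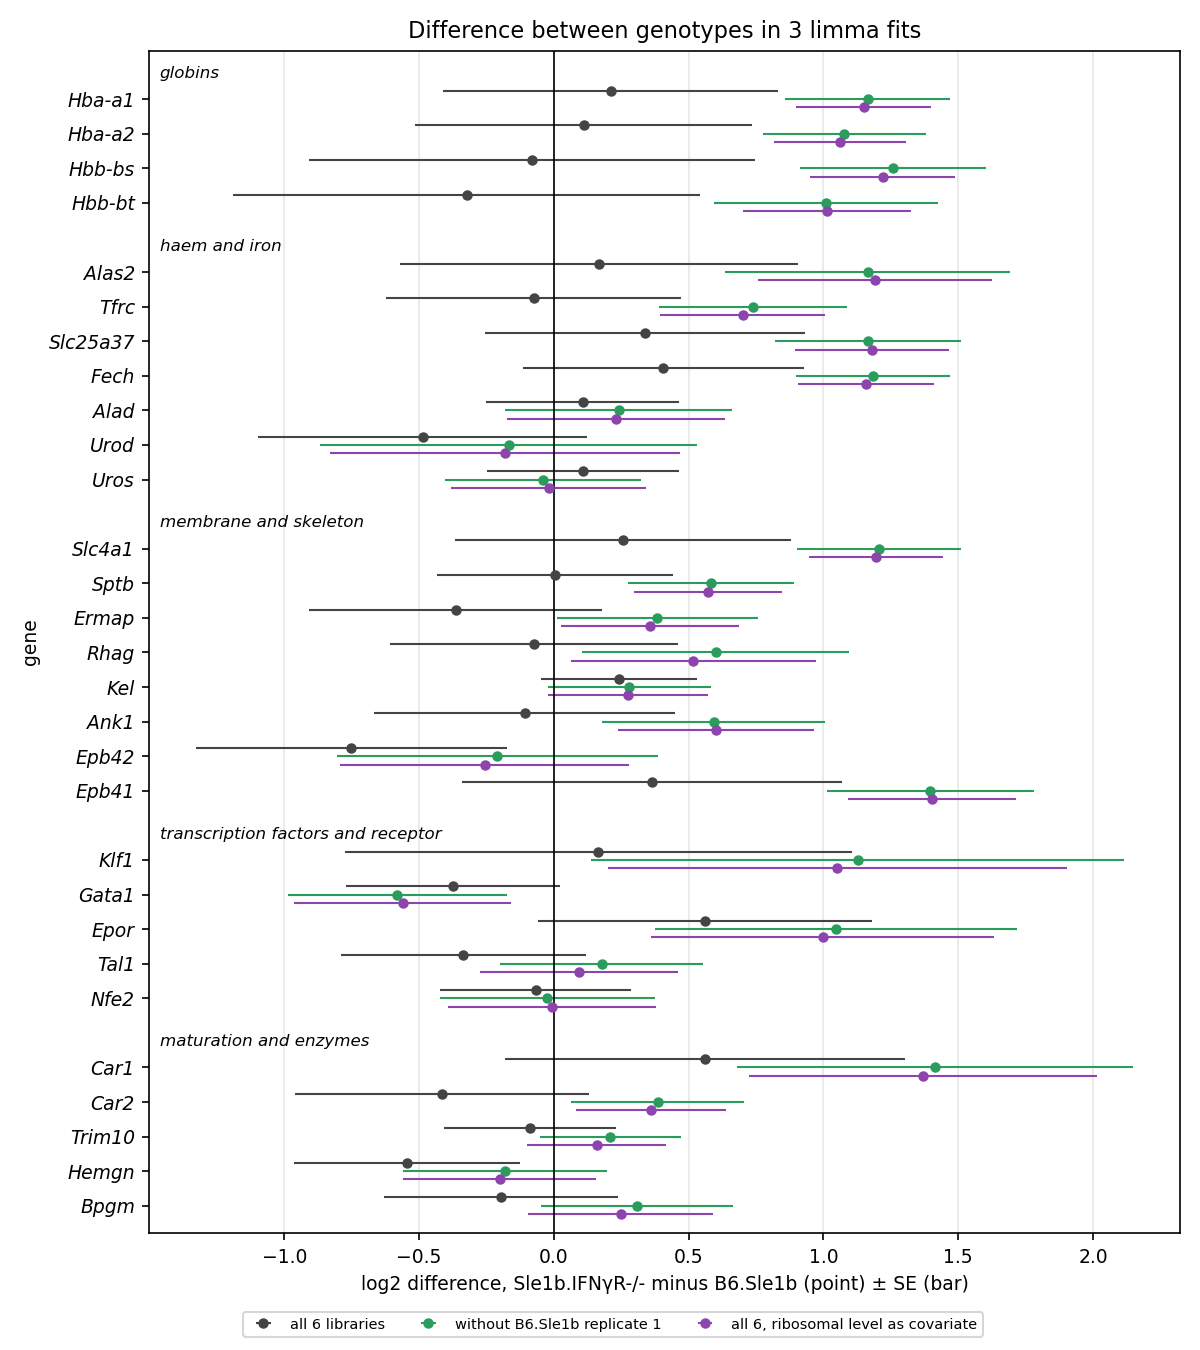
Log2 difference, Sle1b.IFNγR-/- minus B6.Sle1b, in limma (point) with its standard error (bar) for each tested gene, with Epb41 and Epb42 under their older symbols, in 3 fits: all 6 libraries, without B6.Sle1b replicate 1, and all 6 with the ribosomal gene level as a covariate. For the globins the points move from -0.32 to 0.21 in the first fit to between 1.01 and 1.26 in the second.

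These genes differed most between B6.Sle1b replicates 1 and 2. B6.Sle1b replicate 1 was the highest of the 6 libraries in 21 of the 27 genes, against 37.9% of all loci, and replicate 2 the lowest in 16, against 24.3%. Both held in 14, against 13.7%. The first B6.Sle1b library was at least 5 times the second in 14 of the 27 genes, against 6.33% of all loci, and at least 10 times in 7 (the 4 globins, Alas2, Slc4a1 and Car1), against 1.98%. The genes of a globin pair are not separate measures in these counts. Alas2 and Car1 rest on only 7.40 and 3.29 scaled counts in the second library. The median ratio of these 2 libraries was 6.10 over the 27 and 1.24 over all loci. It was 10.9 to 34.4 for the globins and 0.846 to 1.74 for Gata1, Uros, Kel, Nfe2, Alad, Trim10, Urod and Hemgn. Among the knockout libraries the highest was at the median 1.75 times the lowest over the 27, and 1.72 times over all loci. B6.Sle1b replicate 1 lay above all knockout libraries, and these above both other B6.Sle1b libraries, in 10 of the 27 genes, against 3.85% of all loci. They were Hba-a1, Hba-a2, Hbb-bs, Slc4a1, Klf1, Car1, Sptb, Rhag, Tfrc and Fech, of which Klf1 passed the filter only through B6.Sle1b replicate 1. With Kel, all knockout libraries lay above B6.Sle1b replicates 2 and 3 in 11 of the 27, against 10.1% of all loci, and below both in 0, against 8.77%. Set against B6.Sle1b replicates 1 and 3 instead, they lay above both in 0 of the 27 (7.23% of all loci) and below both in 0 (16.5%).

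Several other gene lists were also high in the same library. In the median log2 level of a list (each gene against its mean over the 6 libraries), B6.Sle1b replicate 1 was at 1.38 for the 27 genes and 1.88 for the tested globins. It was at 1.65 for ribosomal protein genes, 1.28 for cell division genes, 1.06 for housekeeping genes, 0.94 for red pulp macrophage markers, 0.83 for B cell markers and 2.13 for plasma cell markers. Over all tested loci it was at 0.25, for erythropoietin signalling at 0.26 and for megakaryocyte and platelet markers at 0.36. For mast cell and basophil markers it was at 0.19, below B6.Sle1b replicate 3 at 0.45. B6.Sle1b replicate 2 was at -0.90 for the 27 genes and -1.65 for the globins, against -0.41 for ribosomal protein genes and -0.51 for housekeeping genes. With the ribosomal level as a covariate, 11 of the 27 had higher knockout values at an unadjusted limma p under 0.05 (3.33% of all loci) and 0 had lower ones (1.62%). The median log2 difference was then 0.57, beside 0.013 over all loci, with 22 of the 27 above 0 (51.1% of all loci), and 0 of the 27 reached an adjusted p under 0.05, against 7 loci (0.0364%). The smallest limma adjusted p there was 0.155, for Slc4a1, with a log2 difference of 1.19 (SE 0.25). With the housekeeping level as the covariate, Slc4a1 alone of the 27 passed, with a log2 difference of 1.14 (SE 0.22) and a limma adjusted p of 0.0321. By that fit 9 loci (0.0468%) were higher in the knockout and 4 (0.0208%) lower. Epb41 also passed, with a log2 difference of 1.38 (limma adjusted p of 0.0182). Both covariates are highest in B6.Sle1b replicate 1, and the medians they give for the 27 genes, 0.57 and 0.53, lie close to the 0.59 found without that library. The part of this library's RNA level in the result was not tested.

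**Figure D4:**
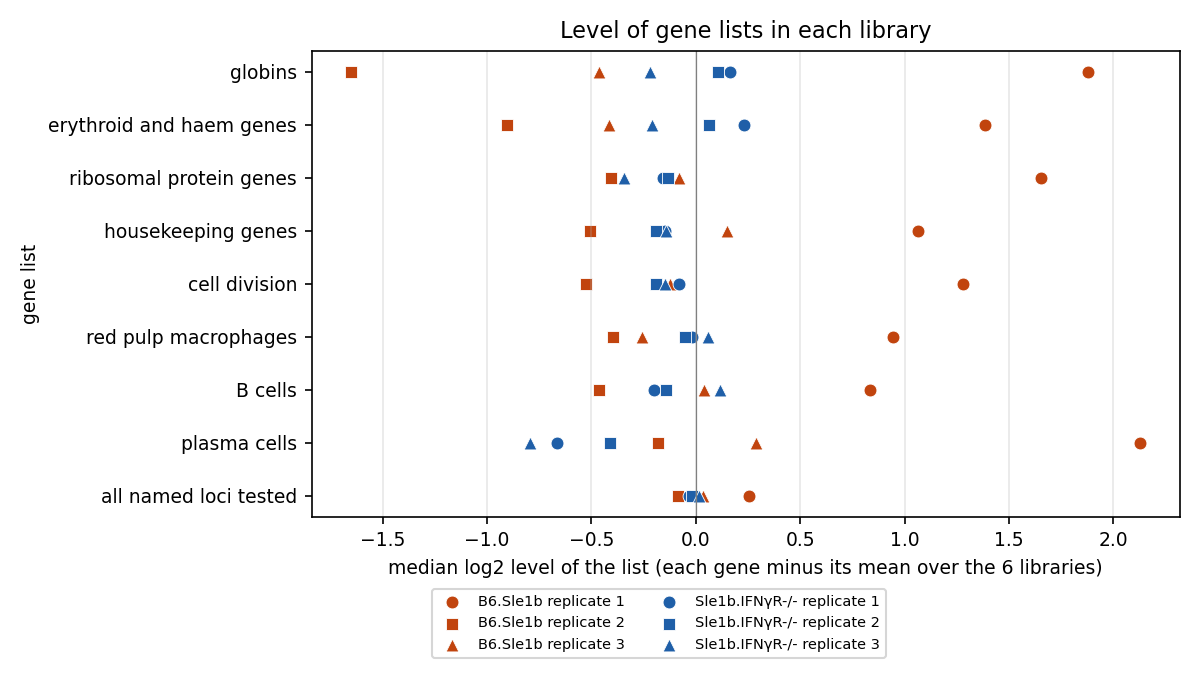
Median log2 level of gene lists in each library (each gene minus its mean over the 6 libraries); each point is 1 library, coloured by genotype and shaped by replicate number. B6.Sle1b replicate 1 is the highest library in every list shown, and B6.Sle1b replicate 2 lies further below the rest for the globins (-1.65) and the erythroid genes (-0.90) than for the ribosomal protein genes (-0.41).

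The wider pathway lists, which hold members of the list and related genes, gave 0 calls over all 6 libraries in limma, and of their tested genes only Fth1 and Stat5a had an unadjusted p under 0.05. Their median log2 differences were 0.11 for 9 of 9 haem synthesis enzymes, -0.20 for 19 of 25 haem and iron transport genes, and -0.23 for 15 of 20 erythroid transcription factors. They were -0.074 for 21 of 23 membrane and skeleton genes, 0.031 for 15 of 16 genes of erythropoietin signalling and -0.13 for 17 of 20 late maturation genes. Without B6.Sle1b replicate 1 all 6 medians were above 0, at 0.24, 0.082, 0.18, 0.39, 0.12 and 0.34 in the same order, so that 4 of them turned sign. Of genes outside the 32, Fth1, the heavy chain of the iron store ferritin, had 395, 54.3 and 68.4 in the controls and 76.1, 43.8 and 14.4 in the knockouts. Its log2 difference was -1.61 (SE 0.69), and -0.72 (SE 0.46) without B6.Sle1b replicate 1, where its unadjusted limma p was 0.131. Stat5a, a transcription factor that acts below the erythropoietin receptor and many cytokine receptors, had 41.8, 49.3 and 37.5 in the controls and 21.9, 24.7 and 25.2 in the knockouts. The groups did not overlap, and the log2 difference was -0.81 (SE 0.33), or -0.82 (SE 0.40) without B6.Sle1b replicate 1. Erfe, or erythroferrone, the hormone by which red cell precursors lower hepcidin, was found as Fam132b and had 11.2, 15.6 and 15.0 in the controls and 20.99, 19.1 and 25.2 in the knockouts. These groups did not overlap either, at a log2 difference of 0.61 (SE 0.42, unadjusted limma p of 0.172), or 0.47 (SE 0.49) without that library. Over all loci, 5.19% lay wholly lower in the knockouts, as Stat5a did, and 3.51% wholly higher, as Erfe did. Both genes were taken from their list for their small p. Cat, catalase, the peroxide-breaking enzyme abundant in red cells, had 314, 78.9 and 90.9 in the controls and 211, 173 and 237 in the knockouts. It shared the order of Hba-a1 by group, with all knockout libraries between the first B6.Sle1b library and the other two. Its log2 difference was 0.64 (SE 0.43), and 1.27 (SE 0.24) without B6.Sle1b replicate 1, where its limma adjusted p was 0.0827. Cat passed with the housekeeping covariate, at 1.16 (limma adjusted p of 0.0321), and with the ribosomal covariate and no B6.Sle1b replicate 1, at 1.27 (limma adjusted p of 0.0371). The limma adjusted p over all 6 libraries with no covariate was 0.99976 for Fth1, Stat5a, Erfe and Cat. Of the other smallest-p genes of these lists, Sox6 had a log2 difference of 0.56, and 1.03 without B6.Sle1b replicate 1. Gypc, Dmtn, Ppox, Alox15, Iscu and Runx1 were at -0.84, -0.86, -0.56, -0.55, -2.30 and -0.47. Without that library they stayed below 0, at -0.55, -0.41, -0.59, -0.49, -1.92 and -0.23. Iscu rests on few fragments. Alas1 went from -0.22 to 0.13.

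Markers of other spleen cells were read beside these values. Markers of red pulp macrophages, which take up old red cells, were all found (13 of 13), and their summed value was 455 to 1443 in the controls and 647 to 738 in the knockouts. Among them Spic, the factor that red pulp macrophages need, had 46.9, 16.4 and 15.0 in the controls and 60.3, 24.7 and 45.5 in the knockouts. Treml4, another marker of this list, had 80.5, 36.2 and 29.1 in the controls and 27.1, 19.1 and 37.1 in the knockouts. The log2 difference was 0.82 (SE 0.48) for Spic and -0.69 (SE 0.43) for Treml4. Without B6.Sle1b replicate 1 these were 1.33 and -0.26. In that fit the median log2 difference of this list was 0.51, close to the 0.59 of the erythroid genes, with 11 markers above 0 and 2 below. Megakaryocyte and platelet markers (14 of 14 found), a lineage that shares Gata1, Tal1 and Nfe2 with red cells, summed to 468 to 689 in the controls and 499 to 604 in the knockouts. Mast cell and basophil markers (8 of 8) summed to 138 to 166 and 126 to 174. Neutrophil markers (12 of 12) summed to 227 to 536 and 250 to 267, T cell markers (10 of 10) to 317 to 605 and 325 to 356, and B cell markers (10 of 10) to 983 to 2009 and 1081 to 1156. Plasma cell markers (10 of 10) summed to 210 to 1077 in the controls and 167 to 192 in the knockouts, with Tnfrsf17 at 0 in every library. In each of these lists except that of plasma cells the knockout sums overlapped the B6.Sle1b range, and 0 markers passed the limma test. At an unadjusted limma p under 0.05, 4 of 6 tested plasma cell markers were lower and 1 of 10 B cell markers, Cr2, was higher in the knockouts, against 3.1% of all loci in either direction. Without B6.Sle1b replicate 1, 0 plasma cell markers had such a p, and Cr2 still did. Most B cell markers did not share the direction of Cr2 over all 6 libraries. Of the 10, 8 were below 0 (median -0.23), with Cd79a at -1.10 (SE 0.61) and Cr2 at 0.87 (SE 0.36). Without B6.Sle1b replicate 1, 3 were below 0 (median 0.12), with Cd79a at -0.46 and Cr2 at 1.02. The part of other cell types in the values of the red cell genes was not tested.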

How the data were processed

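Spleen RNA of 6 samples was sequenced by the authors. TRIzol extraction and the NuGEN Ovation RNA-seq System V2, which amplifies cDNA, were used per the labels' protocols. The submitters' processing notes list TopHat2 2.0.9, Cufflinks 2.2.1, CASAVA and the build GRCm38. Which annotation was used, and how strand and reads with several matches were handled, is not given in the sources used here, so a gene cannot be told from one that overlaps it or lies antisense. The authors deposited 1 table whose signal is the fragment count of each locus after quartile scaling between libraries, per the file headers. Its 1530481 rows were collapsed to 426574 loci, 44794 of them named. In each library 99.8% of positive values were whole multiples (within 0.01) of 1 step. As the rest were not, the counts were not taken as recovered, and the planned tests for counts were not run. Another 24 columns of per-sample values were not used.

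The test took the 19227 named loci whose mean reached 10. Their log2(value + 1) was fitted on genotype alone in limma 3.58.1 (R 4.3.3), with the trend option. Adjusted p values are Benjamini-Hochberg over all 19227, at a threshold of 0.05. On this scale the folds of low genes come out too small. Coordinates came from GENCODE release M21 (96.4% of named loci) and promoters from RefSeq. Tables and plots were made with python 3.11.15, pandas 2.3.3, numpy 2.4.6 and matplotlib 3.10.9. The procedure was tested on simulated data. The simulated libraries all had the same spread and none stood apart, so that test does not cover an outlying library. The genes and lists were chosen with earlier results of these data known. The rule for named genes takes all 32 genes and, in each other list, the 2 genes outside the 32 with the smallest p. Of the latter, those of the globin and red cell pathway lists are all printed. From the lists of other cell types only Spic, Treml4, Cr2 and Cd79a are printed. None is printed from the cell division, ribosomal and housekeeping lists. The orders of libraries that were counted, Hbb-y and the older symbols were chosen after values were seen. Whether each sample came from its own mouse is not said in the labels, and p values then reflect only the spread between these samples, which may be technical. Replicate numbers do not pair the samples: same-numbered libraries deviated with correlations of 0.012, -0.027 and -0.011.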

Additional observations from a re-analysis of the deposited data

How the results depend on the processing

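The 27 genes gave 0 calls in the limma fit as deposited and under each alternative run except the housekeeping covariate, which gave 1 (Slc4a1). Over all named loci 0 passed as deposited, 7 with the ribosomal covariate, 13 with the housekeeping covariate and 7 with the ribosomal covariate and no B6.Sle1b replicate 1, the last chosen after seeing the data. Leaving out each library in turn gave 0 to 5 loci, with 5 for B6.Sle1b replicate 1 and 5 for replicate 2 left out, and 0 of the 27 genes. The cause was not tested. The median log2 difference of the 27 ran from -0.46 (without B6.Sle1b replicate 2) to 0.59 (without replicate 1) in these fits. It was 0.0093 with median-ratio scaling, -0.034 with scaling to the total, 0.050 with upper-quartile scaling and 0.52 with scaling to ribosomal protein genes, which moved the median of all loci to 0.49. Single genes changed sign without a call in 4, 0, 6 and 14 cases under these 4 scalings, the last of 26 tested. They did so in 11 cases with the ribosomal covariate, 9 with the housekeeping covariate, 11 without B6.Sle1b replicate 1, 10 without replicate 2, 11 with the ribosomal covariate and no B6.Sle1b replicate 1, and 0 to 5 under each other setting. The replicate block gave 0 loci, 0 of the 27 genes and a median of -0.068. No low-value filter, a minimum mean of 50, pseudocounts of 0.5 and 10, robust limma and the sum of loci per name gave 0 calls and medians between -0.080 and -0.047. With the 2 older symbols added, the median was -0.068. The planned tests for counts were not run, because whole fragments were not fully recovered. Counting error limits genes whose lowest libraries hold few fragments, such as Rhd, Slc25a38, Klf1, Car1 and Alas2.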
